A study of Mus musculus with 221 samples.

Results

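Flow-response and immediate early factors were followed here as 9 genes: the Kruppel-like factors Klf2, Klf4 and Klf6, the endothelial nitric oxide synthase gene Nos3, and the early-response genes Fos, Jun, Junb, Egr1 and Ier2. They were chosen by symbol. The 9 genes have 19 annotated transcripts among the 278369 transcripts and 78001 gene symbols of the deposited table, and all 9 genes had counts in the hemogenic endothelium (HE) of the embryo's aorta region, 8 in that of yolk-sac arteries and 6 in that of the yolk-sac plexus.

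The data are full-length complementary DNA (cDNA) of single mouse embryo cells, each deposited as a sample, amplified with the Smart-seq2 protocol and read on a nanopore instrument. HE is the endothelium from which blood cells bud, in the aorta-gonad-mesonephros region (AGM) inside the embryo and in the yolk sac (YS) outside it. HE-AGM cells belonged to clusters c3 (early, 29 cells) and c4 (late, 22 cells). HE-YSA cells, from yolk-sac arteries, belonged to m1 (early, 27 cells) and m2 (late, 30 cells), and HE-YSP cells, from the yolk-sac plexus, to b2 (early, 26 cells) and b3 (late, 27 cells). The other cells were c5, an AGM cluster labelled HE-Hb (21 cells), and the yolk-sac progenitors p1 (lympho-myeloid skewed, 18 cells) and p2 (erythro-myeloid skewed, 21 cells). All came from embryos of the GFI1-GFP and RUNX1B-RFP reporter lines and received no treatment. AGM HE cells were sorted as RUNX1+ KIT- CDH5+ GFI1+/- CD41- CD45-, and YS HE cells as RUNX1+ KIT+ GFI1+/- CD31+ CD41- CD45-. The YS cells were of embryonic day 9 (E9), E9.5 or E10.5 by their library names, and the series gives E9.5 and E10.5 for the AGM without a stage for most of its cells. The 2 tissues were dissociated by different procedures and their cDNA was made in different projects, so tissue, sort, dissociation and cDNA project cannot be told apart.

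The first group of genes belongs to the endothelial response to blood flow. Shear stress on endothelial cells acts through junctional and channel proteins and the MEK5-ERK5 kinase cascade on MEF2 factors, which turn on Klf2 and Klf4, and these factors in turn raise Nos3, whose product makes nitric oxide. Blood flow and nitric oxide are known to favour the formation of blood stem cells in the AGM. The second group is switched on within minutes by growth factors, stress or mechanical stimuli without new protein synthesis: Fos, Jun and Junb are subunits of the AP-1 transcription factor, Egr1 is a zinc-finger factor that answers the ERK pathway, and Ier2 is an early-response nuclear protein. Klf6 is a zinc-finger factor of the Kruppel-like family that is also quickly induced after vascular injury.

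Sequences are shown for an exon of Klf6 and for the promoters of Klf2 and Jun, and their part in the results was not tested. The first is an exon that separates annotated Klf6 isoforms, since the shares of Klf6-201 and Klf6-203 passed the isoform threshold between AGM and YS. Klf6-203 holds a 68-nt second exon, at chr13:5863558-5863625 on the plus strand (GRCm38, from the GENCODE M21 model with the same transcript ID and length), which the coding isoform Klf6-201 lacks. In the sequence below the capitals mark the in-frame stop codon, 11 nt before the end of the exon.

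Klf6-203 exon 2: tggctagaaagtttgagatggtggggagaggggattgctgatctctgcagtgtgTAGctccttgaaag

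The second set is from the promoters of Klf2 and Jun, which had their highest level in the same cluster (c3) and whose promoters both hold a MEF2 box. Klf4 and Nos3 also had their highest level in c3. RefSeq promoters (GRCm38.p6, from 250 bases before to 50 after the start site) were matched for 6 of the 9 genes, Klf2, Klf4, Klf6, Fos, Jun and Junb. Nos3, Egr1 and Ier2 were not matched. The promoters of Klf4, Klf6, Fos and Junb held no MEF2 box. Searched on both strands, a MEF2 box was held by 183 of 32851 promoters of this length (0.557%). It lies 118 to 109 bases before the start site of Klf2, in the stretch chr8:72318924-72318973 (plus strand), and 33 to 24 bases before that of Jun, in chr4:95052226-95052275 (minus strand). The capitals mark the box.

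Klf2: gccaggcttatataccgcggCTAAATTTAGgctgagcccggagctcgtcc

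Jun: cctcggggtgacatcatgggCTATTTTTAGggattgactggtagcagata

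A TGACG core, a stretch that CREB family factors read, was found in the promoters of Klf2, Klf4, Fos and Junb, and in 20.8% of all promoters. The AP-1 site itself, TGACTCA or TGAGTCA, was in none of the 6 matched promoters and in 5.2% of all. A CArG box, the site of serum response factor, was in none of the 6 matched promoters and in 1.63% of all. These matches are descriptions of letters in a window and say nothing of binding in these cells.

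Of 221 cells, 208 passed the library-size limit of 17595 estimated counts and were used. Totals per cell ran from 30323 to 125339 (median 59311) among HE-AGM cells, from 18543 to 71389 (median 34483.5) for the arterial HE-YSA and from 18131 to 84052 (median 33297) in HE-YSP. No pair of cells shared a run and barcode. As no embryo is named for a cell, each cluster counts as 1 sample, and there is no test and no replicate check across embryos. The 3 nanopore runs, each with cells of every cluster, gave the only repeat: a gene was called between groups when its CPM (its count per 1000000 counts of the group) differed at least 2-fold and in the same direction in each run, at a mean of at least 10 CPM. The 95% intervals cover counting error only. The clusters had been drawn from short reads of the same cells, so differences between clusters are descriptions. Summed endothelial markers stood at 2414 CPM in c3, 1034 in c4 and 262 in c5, at 3207 in m1 and 1475 in m2, and at 3655 in b2 and 1104 in b3, while those of blood markers ran from 46 to 633 CPM over the clusters. Summed blood markers were at 480 CPM in HE-AGM, 230 CPM in HE-YSA and 97.5 CPM in HE-YSP, and 3 of the 4 tested against HE-YSA and 4 of 4 against HE-YSP were called higher. Summed macrophage markers, with 4 of 7 listed genes in the table and Fcgr1 at 0 in each HE cluster, went from 56.2 CPM in c3 to 140 CPM in c4, from 32.1 in m1 to 143 in m2 and from 45.8 in b2 to 156 in b3. Most of these sums was 1 gene, Lyz2, the only one of the list above the minimum level. Lyz2 went from 46.9 to 131 CPM, from 28.6 to 127 CPM and from 32.9 to 155 CPM in the same steps. Summed erythroid markers were at 357 CPM in c3 and at 3 to 52 CPM elsewhere. In c3 the highest cell had 11841 CPM of them and the median cell 0. In addition, 3 YS-labelled cells carried an AGM name or an AGM cDNA project. The part of these in the results was not tested, except where values without those cells are given.

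**Figure D1:**
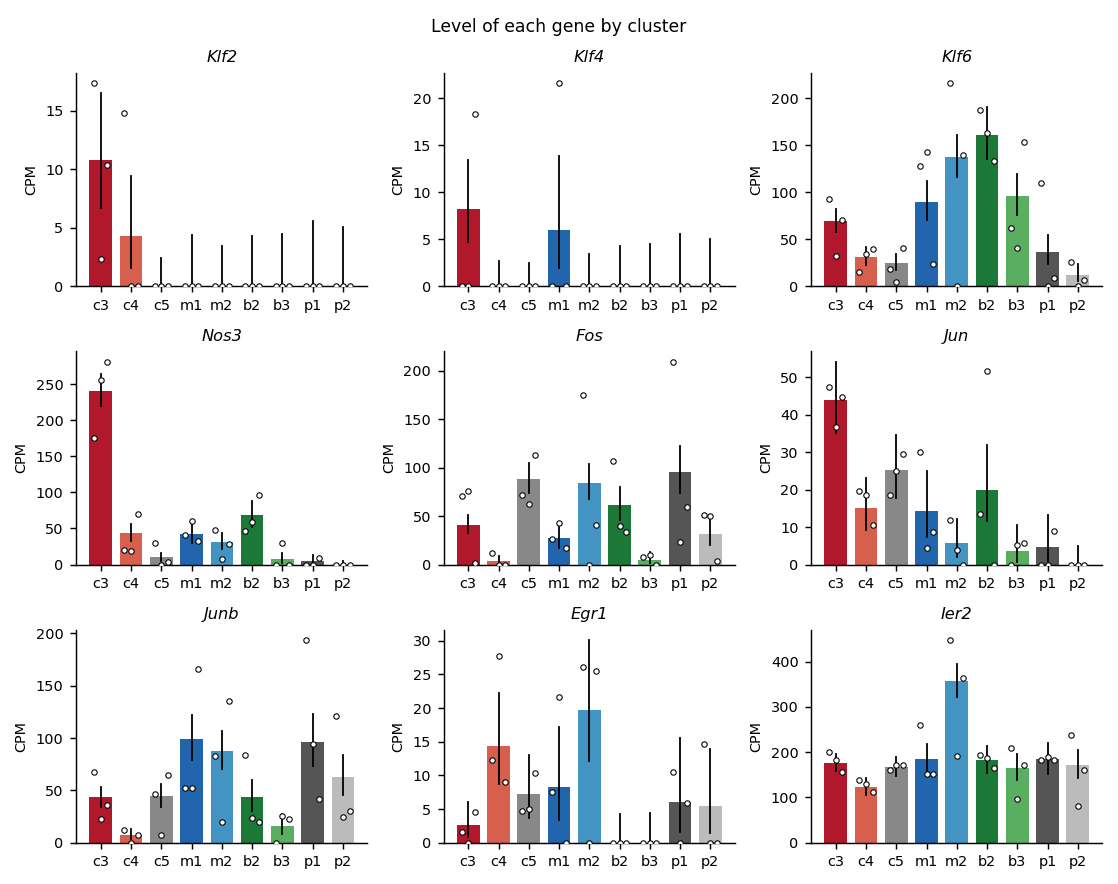
Level of each of the 9 genes (CPM of summed counts) in the 9 clusters. Bars are clusters, lines the exact 95% Poisson intervals and open circles the 3 nanopore runs. Nos3 stands at 241 CPM in c3 and at most 68.2 CPM elsewhere, and Klf2 has counts only in c3 and c4.

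Among the Kruppel-like factors, Klf2 had counts in HE-AGM and in no other cell. It had 21 counts in c3 (10.8 CPM, interval 6.7 to 16.6) and 6 in c4 (4.31 CPM), and 0 counts in c5 and in the 6 YS clusters, where 3 counts would have been 1.99 to 4.57 CPM. The counts lay in 8 of 49 HE-AGM cells, the highest at 117 CPM, and the median cell had none. With the YS populations at a floor of 3 counts, HE-AGM at 8.11 CPM was 5.15-fold higher than HE-YSA and 4.52-fold higher than HE-YSP. The intervals of these log2 ratios began at 1.97 and 1.78. The level was too low for the minimum of 10 CPM behind a call. All 3 runs of HE-AGM held Klf2, at 16.4, 1.32 and 5.87 CPM. Klf4, which shares much of the flow response of Klf2, was sparser still. It had 16 counts in 4 cells of c3 (8.25 CPM, all in run 3) and 5 counts in 1 cell of m1, and none in the other 7 clusters.

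Klf6 was expressed in every cluster and was the only one of the 3 with its highest level in the YS. In c3, c4 and c5 it stood at 69.1, 30.9 and 25.2 CPM. In m1 and m2 it stood at 89.2 and 137 CPM, in b2 and b3 at 161 and 96.2 CPM, and in p1 and p2 at 36.6 and 12.3 CPM. The intervals of b2 (135 to 190) and m2 (116 to 161) overlapped, as did those of b3, m1 and c3, and p2 was below each of the HE clusters except for a small overlap with c4, and also overlapped c5. Single cells ran from 0 to 367 CPM in the AGM HE, from 0 to 640 for HE-YSA and from 0 to 631 in HE-YSP, with medians of 0, 0 and 54.5 CPM. Among cells thinned to the same total, Klf6 was held over 20 random draws by 13 to 19 of 49 in HE-AGM, by 18 to 23 of 52 in HE-YSA and by 24 to 27 of 49 in HE-YSP.

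Nos3, the endothelial nitric oxide synthase, had its highest level in c3. It stood at 241 CPM in c3 (interval 220 to 264) and at 43.1 CPM in c4 and 9.94 CPM in c5. In the YS the levels were 68.2 CPM in b2, 42.8 in m1, 30.99 in m2, 7.31 in b3 and 4.57 in p1, and no count was seen in p2. The interval of c3 overlapped no other. Those of b2, m1 and c4 overlapped each other, and so did those of c5, b3 and p1, while that of p2 lay below that of c5. At equal depth, 22 of 29 cells of c3 held a Nos3 read (75.9%), against 15 of 25 cells of b2, 6 of 20 of c4, 8 of 23 of m1, 8 of 29 of m2 and 1 of 24 of b3. The median cell of c3 had 204 CPM and the highest 636 CPM, and the highest cell held 14.99% of the counts. Nearly all reads were assigned to the isoform Nos3-202, 99.9% in HE-YSP, 98.6% in HE-YSA and 93.9% in HE-AGM.

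**Figure D2:**
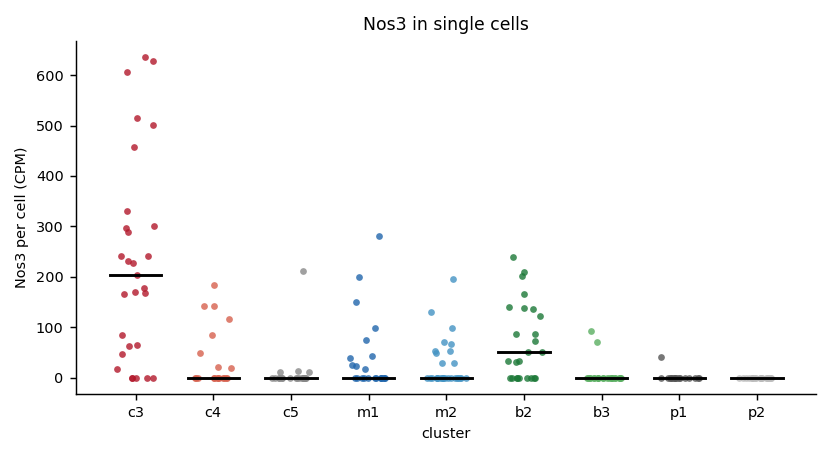
Nos3 level of each of the 208 cells (CPM, linear scale) by cluster. Points are cells and black lines the medians, which are 204 CPM in c3, 51.1 CPM in b2 and 0 in the other 7 clusters.

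The genes whose levels over the 9 clusters were most like those of Nos3, by Pearson r of log2(CPM + 10) among 3259 genes with at least 500 counts, were Igf2r (r = 0.96), Malat1 (0.95) and Rdx (0.95). For Klf2 they were AB041806 (0.96), Ganab (0.90) and Ccnb2 (0.90), and for Fos Sting1 (0.79), Ndufa11 (0.76) and Pitrm1 (0.76). Clusters of a tissue share projects and depth, and with 9 points these are descriptions. Between members, Nos3 had its highest r with Jun (0.81) and Klf2 (0.75), and Fos with Junb (0.77), while Nos3 and Fos had r = -0.03.

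The early-response genes were sparse and uneven between cells, apart from Ier2. Fos stood at 96.0 CPM in p1, 88.1 in c5, 84.5 in m2, 61.1 in b2, 40.7 in c3, 31.4 in p2, 27.4 in m1, 4.87 in b3 and 3.596 in c4. In m2, 1 cell of 830 CPM held 56.7% of the counts, in c3 1 cell of 857 CPM held 51.9% and in b2 1 cell of 458 CPM held 53.8%. Without that cell the levels were 38.9, 27.8 and 30.4 CPM. In c5, 9 of 21 cells held Fos. Late HE clusters c4 and b3 were lowest, with 5 counts in 1 cell and 4 counts in 2 cells, and their intervals (1.2 to 8.4 and 1.3 to 12.5 CPM) overlapped each other and no other cluster. Fos-201, the coding isoform, took 89.3% of Fos counts in HE-YSP, 90.3% in HE-YSA and 96.4% in HE-AGM.

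Junb followed Fos in its lowest clusters, with 7.19 CPM in c4 and 15.8 in b3. Its higher levels were 98.7 CPM in m1, 96.0 in p1, 87.3 in m2, 62.8 in p2, 44.4 in c5, 43.5 in b2 and 43.3 in c3. The intervals of m1, p1, m2 and p2 overlapped, as did those of c5, b2 and c3. In p1, 11 of 17 thinned cells held it and the median cell had 93.1 CPM, and in the other clusters the median cell had none. Jun had its highest level in c3 (43.8 CPM, interval 35.02 to 54.2) and 25.2 CPM in c5, 19.98 in b2, 15.1 in c4, 14.3 in m1 and 3.65 to 5.63 in b3, p1 and m2, with no count in p2. In b2, 76.5% of its 17 counts came from 1 cell. Its 2 annotated isoforms have the same length and were each given 50% of the counts, so they cannot be told apart here.

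Egr1 and Ier2 differed in how widely they were found. Egr1 was highest in m2 (19.7 CPM, in 4 of 29 cells) and c4 (14.4 CPM, in 5 of 20 cells). It stood at 2.58 to 8.33 CPM in c3, m1, c5, p1 and p2. In the 49 cells of b2 and b3, where 3 counts would have been 1.79 CPM, it had no count. Ier2 was the most widely found, from 14 of 20 thinned cells in p2 to 26 of 29 in m2. It stood at 357 CPM in m2 and between 124 CPM (c4) and 186 CPM (m1) in the other 8 clusters. The medians over single cells were closer, 175 CPM in m2 and 119 to 172 CPM in the others, and 1 cell of 1644 CPM held 26.6% of the m2 counts. Without it m2 was at 278 CPM. The 3 YS-labelled cells with an AGM name or project included 1 of m1 at 810 CPM Ier2, 540 CPM Junb, 232 CPM Fos and 193 CPM Jun.

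The comparison of HE-AGM with HE-YSA and HE-YSP asks whether HE of the aorta differs from HE of the yolk sac. Both use the same HE-AGM cells. Against HE-YSA, Nos3 and Jun were called higher in HE-AGM and Klf6 and Junb lower, of the 7 members above the minimum level. Over all 8656 genes tested, 23.1% were called higher and 11.2% lower, so 2 of 7 in each direction is not a result about these genes. Nos3 stood at 158 CPM against 36.2 CPM, a log2 ratio of 2.13 (interval 1.76 to 2.51), and Jun at 31.8 against 9.45 CPM, a log2 ratio of 1.75 (1.02 to 2.56). Klf6 stood at 53.2 against 116 CPM (log2 -1.13, interval -1.42 to -0.83) and Junb at 28.2 against 92.4 CPM (log2 -1.71, interval -2.09 to -1.34). By run, Nos3 was at 115, 154 and 190 CPM in HE-AGM and at 45.1, 33.2 and 29.9 CPM in HE-YSA, with no overlap, and Jun at 36.6, 29.03 and 30.01 against 18.9, 4.15 and 4.08 CPM. Klf6 did not overlap either, at 62.6, 32.99 and 56.8 against 182, 68.5 and 85.6 CPM, whereas Junb did, at 46.2, 13.2 and 23.5 against 71.3, 35.3 and 149 CPM. Fos, Egr1 and Ier2 were lower in HE-AGM by log2 values of -1.23, -0.97 and -0.87 without a call.

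Against HE-YSP, Nos3 was called higher (158 against 38.3 CPM, log2 2.05, interval 1.67 to 2.45) and Klf6 lower (53.2 against 129 CPM, log2 -1.28, interval -1.58 to -0.99). The background was 25.4% higher and 13.3% lower of 8606 genes. Jun had a log2 ratio of 1.41 that did not keep its direction in each run. Junb, Ier2 and Fos differed by log2 values of -0.08, -0.17 and -0.41 with intervals that reach from -0.59 to 0.44, from -0.38 to 0.04 and from -0.91 to 0.11. Egr1, with 25 counts in HE-AGM, was at least 4.18-fold higher there but under the minimum level.

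Transcript length moved with the same contrast, and its part was not tested. Counts on transcripts longer than 3000 nt made up 5.57% of HE-YSP, 5.78% of HE-YSA and 12.6% of HE-AGM. Genes of 3000 to 4500 nt, the class of Nos3, Jun, Klf4 and Egr1, had a median log2 ratio of 1.02 for HE-AGM over HE-YSA with 40.9% called higher, and of 1.04 with 43.6% called higher over HE-YSP, where the medians of all genes were 0.19 and 0.21. The Nos3 ratios of 2.13 and 2.05 lay above the median of its length class in both. Genes of 2000 to 3000 nt, the class of Klf6 and Fos, had a median of 0.48 with 3.04% called lower against HE-YSA, and of 0.57 with 5.86% called lower against HE-YSP. Klf6 was placed in this class by a mean of 2176 nt. Its mean isoform length was 3276 nt in HE-AGM, 1453 nt in HE-YSA and 1687 nt in HE-YSP, so no single class fits it. Genes of 1000 to 2000 nt, the class of Klf2, Junb and Ier2, had medians of -0.21 and -0.19, with 15.4 and 17.9% called lower. With cells thinned to an equal total the Klf6 calls held in 12 of 20 random draws against HE-YSA (median log2 -1.10) and in 17 of 20 against HE-YSP (median -1.19). Against HE-YSA the call of Klf6 was lost with cells weighted equally (log2 -0.99) and without run 1 (log2 -0.69), and that of Junb was lost without run 3 (log2 -0.81).

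**Figure D3:**
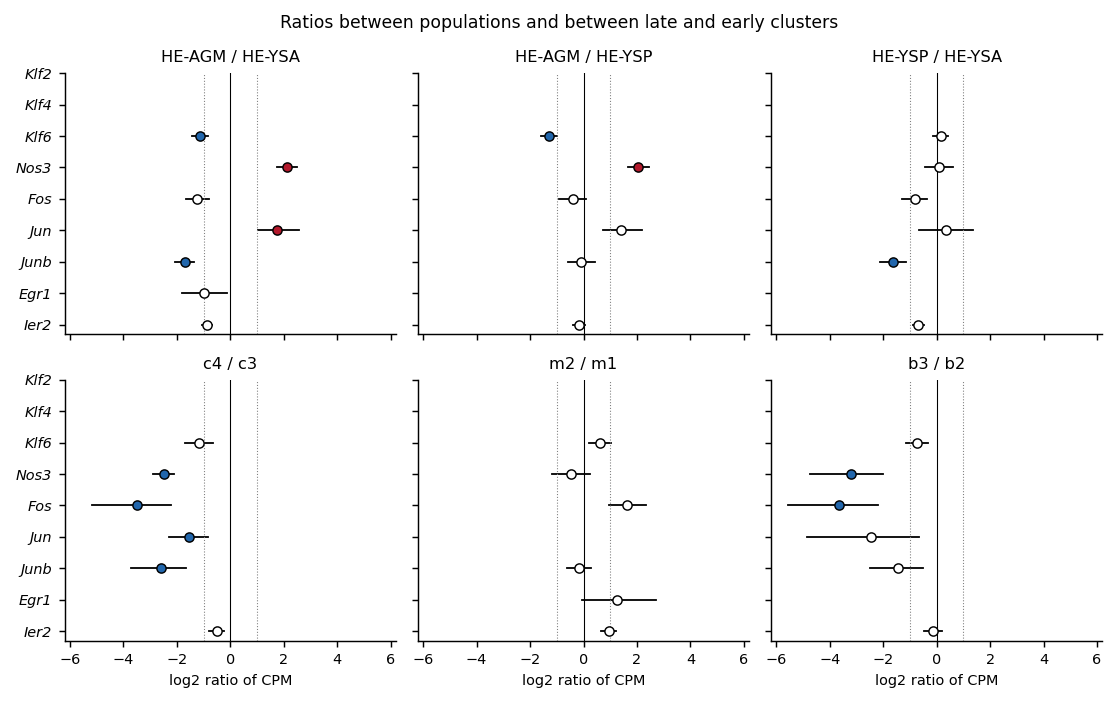
Log2 ratios of CPM for the genes with a mean of at least 10 CPM, between HE populations (top row) and between the late and early cluster of each (bottom row). Lines are 95% conditional binomial intervals, filled points are calls (red higher, blue lower), open points no call, and dotted lines mark 2-fold. Nos3 is filled to the right in both panels with HE-AGM and to the left in c4 over c3 and b3 over b2.

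The 2 yolk-sac populations, compared as HE-YSP over HE-YSA, differed in Junb alone among the members above the minimum. Junb was at 29.9 CPM in HE-YSP and 92.4 CPM in HE-YSA (log2 -1.63, interval -2.11 to -1.17), against a background of 5.87% lower and 5.2% higher of 7729 genes. Its call was lost without run 3 (log2 -0.68) and with YS cells of E10.5 only (log2 -1.17). Nos3, Klf6 and Jun differed by log2 values of 0.08, 0.16 and 0.34, and for Nos3 the interval of the ratio ran from -0.43 to 0.59. Egr1 had 28 counts in HE-YSA and none in HE-YSP, 8.19-fold lower at the floor of 3 counts, with a mean under the minimum.

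The late cluster of each HE population was then set against its early cluster. In the AGM, 4 of the 6 members tested, Nos3, Fos, Jun and Junb, were called lower in c4 than in c3 and none higher, where 8.63% of 8854 genes were called lower and 4.26% higher. The log2 ratios were -2.48 for Nos3 (43.1 against 241 CPM), -3.50 for Fos (3.596 against 40.7 CPM), -2.59 for Junb (7.19 against 43.3 CPM) and -1.54 for Jun (15.1 against 43.8 CPM). Over the 11 alternatives that change these cells, their weights or their scaling the Nos3 ratio ran from -3.44 to -2.22 and that of Junb from -2.86 to -2.37. Fos in c3 was found in 7 of 29 cells before thinning, and with thinned cells its call held in 8 of 20 random draws, at a median log2 ratio of -3.55. Klf6 (log2 -1.16) did not keep its direction in each run. Ier2 was lower by 0.51 on the log2 scale without a call, and Egr1 went the other way, from 2.58 to 14.4 CPM on 5 and 20 counts, below the minimum mean.

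In the yolk-sac plexus, Nos3 and Fos were called lower in b3 than in b2 (background 8.59% lower and 8.19% higher of 7627 genes). Nos3 stood at 7.31 against 68.2 CPM (log2 -3.22, interval -4.73 to -2.01) and Fos at 4.87 against 61.1 CPM (log2 -3.65, interval -5.58 to -2.21). The clusters differ in stage, with 13 of 25 cells of b2 and 7 of 24 of b3 at E10.5. Among E10.5 cells alone Fos kept its call (log2 -3.90) and Nos3 lost it (log2 -1.51). With thinned cells the Fos call held in 17 of 20 random draws, at a median log2 ratio of -2.80. In the yolk-sac arteries none of the members was called between m2 and m1 (background 5.44% higher and 6.82% lower of 7751 genes), and Ier2 was called higher without the 3 cells of AGM name or project. Nos3 stood at 30.99 CPM in m2 and 42.8 CPM in m1, a log2 ratio of -0.47 (interval -1.19 to 0.26), whose interval lies above those of c4 over c3 and b3 over b2. Ier2 (log2 0.94) and Fos (log2 1.63) were higher in m2, Fos without the same direction in each run. Whether the clusters of the 3 populations differ in these ratios across embryos could not be tested.

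The step from late HE to blood cells was followed by c5 over c4, p1 over m2 and p2 over b3. Fos and Junb were called higher in c5 than in c4, at 88.1 against 3.596 CPM (log2 4.61, interval 3.36 to 6.26) and 44.4 against 7.19 CPM (log2 2.63, interval 1.66 to 3.75), where 4.76% of 8397 genes were called higher and 8.65% lower. All 3 runs of c5 held Fos, and over 11 alternatives the Fos ratio ran from 3.25 to 5.06 and that of Junb from 2.01 to 3.10. Fos was also called higher in p2 than in b3 (31.4 against 4.87 CPM, log2 2.69, interval 1.14 to 4.68), and Klf6 lower (12.3 against 96.2 CPM, log2 -2.97), with a background of 5.22% higher and 7.86% lower of 7379 genes. The Klf6 ratio was -1.73 without run 3, -4.70 without run 1 and -4.86 without the highest cell of each cluster. The Fos call was lost without the highest cells (log2 2.78) and with E10.5 cells only (log2 3.74), of which run 3 had none in p2, though both ratios were at least as large, and with thinned cells it held in 10 of 20 draws. In p1 over m2, Nos3 was the member called, lower at 4.57 against 30.99 CPM (log2 -2.76, interval -5.11 to -1.09), with a background of 9.69% lower and 6.02% higher of 7474 genes. Fos and Junb were already at 84.5 and 87.3 CPM in m2 and at 96.0 CPM each in p1.

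Within the yolk sac, the early-response genes differed between stages, a comparison added after the data were seen. In HE-YSA, 33 cells of E10.5 were set against 16 cells of E9 or E9.5, without the 3 cells of AGM name or project. Fos, Junb, Egr1, Ier2 and Klf6, 5 of the 6 members tested, were called higher at E10.5, where 8.44% of 7692 genes were called higher and 4.52% lower. Fos had 106 counts in 7 cells at E10.5 (82.9 CPM) and 1 count at E9 to E9.5 (1.89 CPM), a log2 ratio of 5.45 (interval 2.94 to 10.77). Junb stood at 123 against 9.47 CPM (log2 3.70, interval 2.44 to 5.34), and 13 of 33 against 1 of 16 thinned cells held it. Ier2 stood at 345 against 123 CPM (log2 1.49, interval 1.11 to 1.89) and Klf6 at 139 against 54.9 CPM (log2 1.34, interval 0.77 to 1.96). Egr1 had 26 counts against none, 3.58-fold higher with the earlier cells at a floor of 3 counts. Within clusters, Klf6 was higher at E10.5 in m2 only, at 166 CPM against no count in 7 cells of E9.5. In m1 Klf6 stood at 92.9 CPM at E10.5 and 103.75 CPM at E9.5. Fos, Junb, Egr1 and Ier2 were higher at E10.5 than at E9.5 in both clusters.

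By run, Junb was at 88.6, 57.8 and 175 CPM at E10.5 and at 0, 4.88 and 31.1 CPM before, with no overlap, and Fos at 187, 36.1 and 36.2 against 5.14, 0 and 0 CPM. Ier2 was at 524, 188 and 301 against 113, 151 and 93.3 CPM, also without overlap. Nos3 at 42.2 against 26.5 CPM (log2 0.67, interval -0.20 to 1.63) and Jun at 5.47 against 9.47 CPM were not called. Without the cell with the highest level in each cluster, Junb, Ier2 and Klf6 kept their calls and Fos and Egr1 lost them, Fos at a log2 ratio of 4.33. Egr1 also lost its call without run 1. With thinned cells Fos and Junb were called in 20 of 20 random draws, Klf6 in 10, Ier2 in 9 and Egr1 in 7, and the median log2 ratios of Klf6 and Ier2 were 1.01 and 1.11.

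In HE-YSP, 20 cells of E10.5 were set against 29 of E9 or E9.5. Fos, Jun, Junb and Klf6, 4 of the 6 tested, were called higher at E10.5 (background 8.18% higher and 6.49% lower of 7638 genes). Fos stood at 61.2 against 5.96 CPM (log2 3.36, interval 2.04 to 5.04), Junb at 51.6 against 8.35 CPM (log2 2.63, interval 1.46 to 4.02) and Klf6 at 176 against 82.3 CPM (log2 1.10, interval 0.68 to 1.53). Jun had 20 counts in 4 cells against none, 6.70-fold higher with the earlier cells at a floor of 3 counts. Ier2 was not called, at 157 against 191 CPM (log2 -0.28, interval -0.62 to 0.06), and Egr1 had no count at either stage. Without run 2 or the highest cells Jun and Klf6 lost their calls, and Klf6 also did without run 1. With thinned cells Klf6 was called in 20 of 20 draws, Fos in 16, Junb in 15 and Jun in 14. The stages differed in cluster mix, with 13 cells of b2 and 7 of b3 at E10.5, 10 and 6 at E9 and 2 and 11 at E9.5. Klf6 and Jun were higher at E10.5 than at E9 in both clusters. Fos and Junb were so in b2. In b3, Fos stood at 6.34 CPM at E10.5, 10.3 CPM at E9 and 0 at E9.5. Junb stood there at 19.02 CPM at E10.5, 22.4 CPM at E9.5 and 0 at E9. Neither rose over both earlier stages in b3, and the part of the mix was not tested.

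Other early-response genes of a list chosen with earlier results known were read beside the members. Of 9 such genes tested in HE-YSA, 6 were called higher at E10.5 and none lower, with a median log2 ratio of 2.14 against -0.03 over all genes, and in HE-YSP 4 of 7 were called higher, with a median of 1.77 against 0.03. Of the heat shock genes none of 7 was called in HE-YSA and 1 of 7, lower, in HE-YSP. Summed endothelial markers were at 2189 CPM at E10.5 and 2033 CPM before in HE-YSA, and at 2965 and 1842 CPM in HE-YSP, and the part of the latter difference was not tested. Depth differed too, with median totals of 35445 against 26429.5 in HE-YSA and of 37844.5 against 26781 in HE-YSP. The labels name no embryo, so stage and the litters or dissections behind it cannot be told apart.

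**Figure D4:**
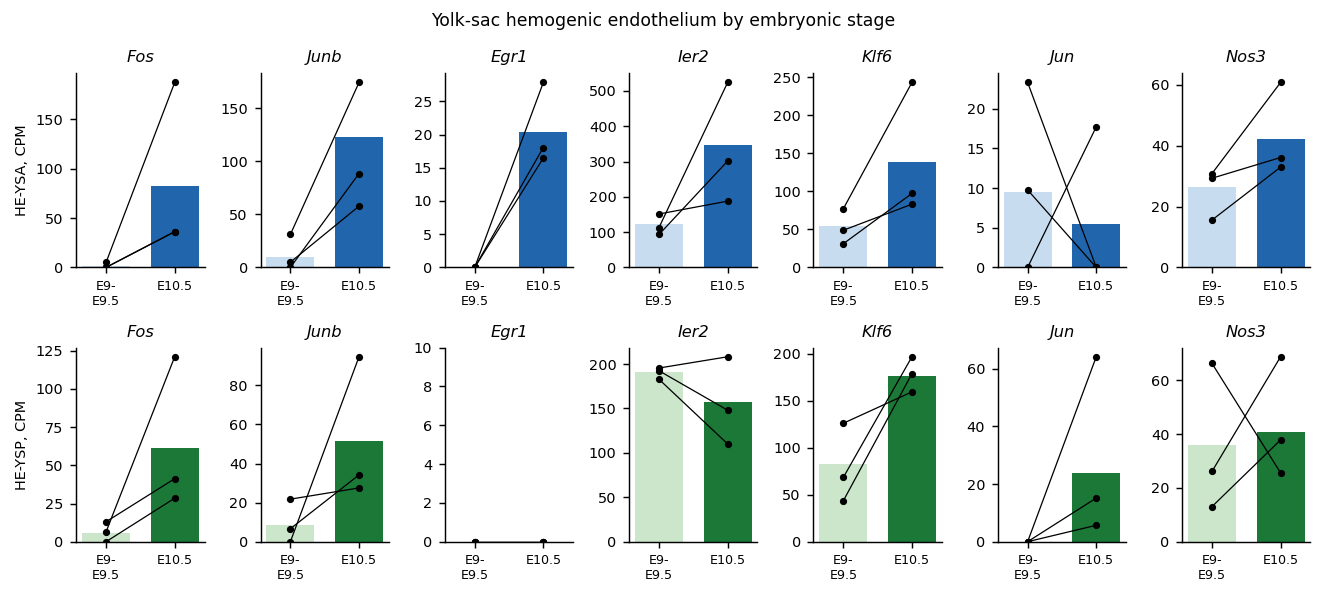
Levels (CPM, linear scales that differ between panels) of 7 of the genes in HE-YSA (top) and HE-YSP (bottom) at E9 to E9.5 and at E10.5. Bars are summed counts and joined points the 3 nanopore runs. Fos, Junb and Klf6 are higher at E10.5 in each run of both populations, and Egr1 has no count in HE-YSP.

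Reads of Fos, Junb and Egr1 were often found in the same cells of HE-YSA, but not in each group. In HE-YSA, 6 of the 9 cells with Fos also held Egr1 (66.7%), against 2.33% of the other cells, and all 7 cells with Egr1 held Junb. The Spearman rho over the 52 cells was 0.73 for Fos and Egr1, 0.61 for Junb and Egr1 and 0.54 for Fos and Junb. For Fos and Junb it was 0.41 in HE-AGM and 0.39 in HE-YSP, and in p1 all 8 Fos cells held Junb. In c5 the rho of Fos and Junb was -0.03. With Egr1, Fos had a rho of 0.15 in HE-AGM and -0.18 in c5, and Junb of 0.01 and 0.16. HE-YSP had no Egr1 count. The median totals of HE-YSA cells with and without Fos were 35960 and 34426 counts. These cells share runs, projects and stages, and 0 counts are frequent, so the values are descriptions. In HE-AGM, Klf2 was with Jun in 6 of its 8 cells (75%, against 41.5% of the other cells), while Nos3 and Jun had a rho of 0.00 and Nos3 and Klf6 of -0.29.

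The Klf6 isoforms differed between AGM and YS. In HE-AGM, 69.5% of the 177 Klf6 counts (exact 95% binomial interval 62.1 to 76.2%) were assigned to Klf6-201, the coding isoform of 4225 nt, and 30.5% to Klf6-203, a 1115-nt transcript that is annotated as a target of nonsense-mediated decay and holds the exon printed above. In HE-YSA, 10.9% of 221 counts (7.08 to 15.7%) were Klf6-201 and 89.1% Klf6-203, and in HE-YSP 18.5% of 216 counts (13.6 to 24.4%) and 80.1%. The difference of 58.6 points against HE-YSA and 50.97 points against HE-YSP was past the threshold of 30 points in the same direction in each run, as in 13.1% of 3344 genes and 12.8% of 2986 genes with at least 50 counts in each group. Between HE-YSP and HE-YSA, where 0.748% of 2807 genes were called, the Klf6 isoforms were not.

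By run, Klf6-201 took 46.2, 100 and 78.2% of Klf6 counts for HE-AGM, with 19.2, 0 and 0% for HE-YSA and 20.5, 16.3 and 18.1% for HE-YSP, so HE-AGM overlapped neither YS population. Klf6-203 was at 16.2 CPM in HE-AGM (interval 12.2 to 21.2) and at 103 CPM in each YS population. Klf6-201 was at 36.9 CPM in HE-AGM (30.7 to 44.1), against 12.6 CPM for HE-YSA (8.07 to 18.7) and 23.9 CPM for HE-YSP (17.1 to 32.6), and the last interval overlaps that of HE-AGM. Of the 22 HE-AGM cells with a Klf6 read, 14 held Klf6-201 alone, 7 both and 1 Klf6-203 alone. Of the 23 such HE-YSA cells none held Klf6-201 alone, 5 both and 18 Klf6-203 alone, and in HE-YSP the 27 cells were 4, 9 and 14. A cell was counted as holding a gene or isoform from an estimate of 1 count, within a tolerance of 1e-06. In c5 92.1% of 38 counts were Klf6-201, and in p1 25% of 24 counts. In c4, at 88.4% of 43 counts, 1 run lay at 16.7%.

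**Figure D5:**
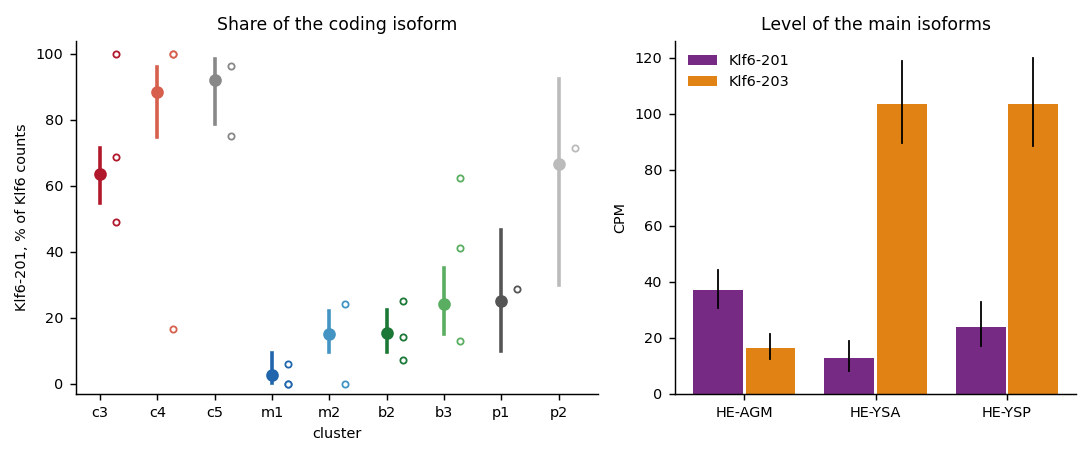
Left, share of Klf6 counts assigned to Klf6-201 (%) in each cluster, with exact 95% binomial intervals and, as open circles, the nanopore runs with at least 5 Klf6 counts. Right, levels (CPM) of Klf6-201 and Klf6-203 in the 3 HE populations with 95% Poisson intervals. Klf6-203 is at 103 CPM in both YS populations and 16.2 CPM in HE-AGM, and 1 run of c4 lies far below its cluster at 16.7%.

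Klf6-201 is longer than Klf6-203 by most of its last exon, which has 3163 nt against 44 nt, as well as lacking the 68-nt exon. Its first exon has 361 nt against 302 nt. Longer isoforms were also more frequent in HE-AGM across genes, and the part of this in the Klf6 values was not tested. The mean isoform length per gene was longer in HE-AGM than in HE-YSA for 69.8% of 3344 genes, with a median log2 ratio of 0.05. For Klf6 it was 3276 against 1453 nt (log2 1.17), and 1.14% of genes had a ratio at least as large. Against HE-YSP it was longer for 71.03% of 2986 genes, and 2.61% of genes had a ratio at least as large as that of Klf6 (log2 0.96). Which of these differences, the 68-nt exon or either end, assigned the reads cannot be read from these values. Without each run the Klf6-201 share ran from 61.1 to 83.04% for HE-AGM, from 0 to 15.2% for HE-YSA and from 17.5 to 19.2% for HE-YSP.

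The genes around the members in the flow pathway were read from lists chosen with earlier results known. Of 10 flow sensing genes tested between HE-AGM and HE-YSA, 2 were called higher and none lower, Cdh5 (VE-cadherin, used in the AGM sort, 586 against 198 CPM) and Plxnd1 (a plexin that senses shear, 241 against 66.7 CPM). Their median log2 ratio was 0.63, against 0.19 over all genes. Of the 11 MEK5-ERK5-MEF2 genes 4 were higher and none lower, with a median of 0.52, among them Mapk7, which encodes ERK5, at 35.4 against 14.7 CPM, and Mef2d at 44.5 against 19.9 CPM. Of the 9 flow-induced targets 3 were higher and none lower, and Aqp1, a water channel, stood at 49.6 against 4.72 CPM. Against HE-YSP, 4 of 9 flow sensing, 3 of 11 pathway and 2 of 9 target genes were higher and none lower. These shares are to be read beside the 23.1 and 25.4% of all genes. A list of the other Kruppel-like factors and the related zinc-finger factors Sp1 and Sp3 had 2 of 8 higher against HE-YSA, Klf3 and Sp3, with a median of 0.83. In b3, 3 of its 6 genes tested were lower than in b2, Klf3, Klf12 and Sp3.

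Among regulators of the synthase, Cav1, which encodes caveolin-1, an inhibitor of the Nos3 enzyme, was lower in HE-AGM, at 7.81 CPM against 43.6 CPM in HE-YSA and 65.8 CPM in HE-YSP. Akt1, a kinase that activates the enzyme, was higher than in HE-YSA, at 144 against 56.9 CPM. Cav1 had no count in m2 and b3 and stood at 98.7 CPM in m1 and 129 CPM in b2. At the floor of 3 counts it was 35.1-fold lower in m2 and 35.4-fold lower in b3. Of the 10 regulators tested in each, 2 were higher and 1 lower against HE-YSA, and 1 higher and 2 lower against HE-YSP. Over all genes 23.1% were called higher and 11.2% lower in the first comparison, and 25.4% and 13.3% in the second, so these counts are not a result about the regulators.

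From early to late HE, flow sensing genes were called lower and none higher, 4 of 11 in c4 over c3, 3 of 9 in m2 over m1 and 4 of 8 in b3 over b2, where the backgrounds are 8.63, 6.82 and 8.59%. Kdr, a VEGF receptor, stood at 18.7 against 109 CPM, at 18.8 against 69.004 CPM and at 14.6 against 149 CPM. The endothelial marker list was also called lower, in 6 of 7, 4 of 7 and 5 of 7 genes, and shares Cdh5, Pecam1 and Kdr with it. Of the other early-response genes 5 of 11 were called lower in c4 over c3, with Zfp36l1 at 34.2 against 133 CPM and Dusp1, a phosphatase that ends MAP kinase signals, at 26.6 against 70.2 CPM. In b3 over b2 it was 2 of 7, among them Dusp1 (8.53 against 77.6 CPM). In m2 over m1, by contrast, 2 of 10 were called higher, Zfp36 (53.5 against 11.9 CPM) and Fosb (28.2 against 10.7 CPM). There 1, Dusp6, was called lower (32.9 against 134 CPM). In c5 over c4, 2 of 12 were higher, Ier3 (47.03 against 10.1 CPM) and Zfp36, and 1, Gadd45g, lower. Zfp36 stood at 37.1 CPM against no count, 17.2-fold at the floor of 3 counts. Of the list of serum response and MAP kinase regulators, 2 of 12 were lower in c4 over c3 and 3 of 12 in b3 over b2, Elk3 at 43.9 against 138 CPM and at 59.7 against 213 CPM. No more than 2 of the heat shock genes were called in any of the 9 comparisons.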

How the data were processed

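Single HE and progenitor cells were sequenced on nanopore runs after Smart-seq2 amplification. The authors called bases with Dorado, trimmed and cleaned reads with bbduk, YACRD and porechop, aligned them with Minimap2 2.26 to GENCODE transcripts, keeping several alignments per read, and estimated transcripts with NanoCount. The deposited table holds, for each cell, estimated counts per transcript and TPM, which is the same count scaled to a fixed total. Of the values above 0, 49.5% are below 1 count. The library-size limit that the study describes (median minus 1 scaled median absolute deviation) was applied again here and left 208 of 221 cells.

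Transcripts were summed by gene symbol and cells by cluster, and CPM were taken from the sums. Intervals are exact 95% Poisson, binomial and conditional binomial intervals. A group at 0 was given a floor of 3 counts over the group, so a fold against it is no lower bound. Calls needed 2-fold, a mean of 10 CPM and the same direction in the 3 runs. Isoform calls needed a difference of 30 points and 50 counts in each group. For shares of cells, each cell was thinned to 17595 counts in 1 random draw, and calls with thinned cells were read over 20 draws, added after the data were seen. The 9 members and the lists were chosen with earlier results of these data known. Genes named from lists are up to 3 called genes with the largest count per list and comparison, and likeness to Klf2, Nos3 and Fos was ranked by Pearson r. The lists held flow sensing, MEK5-ERK5-MEF2, flow-induced, synthase-regulating, other Kruppel-like, other early-response, serum response and MAP kinase and heat shock genes, with markers of other cell types. Stage comparisons, length classes and a few settings of cell shares and isoforms were added after the data were seen. Alternatives changed the cell limit, scaling, weighting, depth, runs, stage, highest cells and call rule. Cells came without an embryo, so no test across samples was made. Scripts ran under Python 3.11.15 with pandas 2.3.3, matplotlib 3.10.9, scipy 1.17.1 and numpy 2.4.6 and were tested on simulated data.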

Additional observations from a re-analysis of the deposited data

How the results depend on the processing

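No paired analysis was possible because each cluster counts as 1 sample and no result comes from a test. Leaving aside settings that remove no cell of a result, none of the 806 recomputed log2 ratios reversed a call, 701 stayed within their interval and 105 moved, and of the 146 recomputed member counts 117 stayed within 1.5 times. Leaving out each run gave 3 to 7 called members for HE-AGM over HE-YSA (4 with all runs), 0 to 2 for HE-YSP over HE-YSA (1), 1 to 5 for m2 over m1 (0), 2 to 4 for b3 over b2 (2), 2 to 4 for c5 over c4 (2), 1 to 4 for p1 over m2 (1) and 2 to 5 for HE-YSP at E10.5 over E9 to E9.5 (4). Without the minimum of 10 CPM the counts were 4 for HE-AGM over HE-YSP (2), 2 for HE-YSP over HE-YSA and 1 for m2 over m1. For m2 over m1 the count was 2 with the limit on the log scale, 2 without the rule on runs, and 1 each without processed pseudogenes, with thinned cells and without the 3 cells of AGM name or project. In 1 random draw thinned cells gave 1 for b3 over b2, 2 for p1 over m2 and 2 for the HE-YSP stages, which over 20 draws varied with the draw. Dropping the rule on runs gave 4 for b3 over b2 and 3 for p1 over m2, and the limit on the log scale gave 0 for p1 over m2. YS cells of E10.5 alone gave 1 for p2 over b3 (2). Without the highest cell of each cluster the counts were 4 for c5 over c4, 3 for the HE-YSA stages (5) and 2 for the HE-YSP stages. The cause of these changes was not tested. The ratio of Nos3 ran from 1.71 to 2.51 for HE-AGM over HE-YSA and from 1.83 to 2.20 for HE-AGM over HE-YSP. Depth limits Klf2, Klf4 and Egr1, which had at most 21, 16 and 21 counts in a cluster.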
